A study of Mus musculus with 18 samples.

Results

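Cytochrome P450 genes were followed through the spontaneous differentiation of mouse embryonic stem cells (ESC) into embryoid bodies (EB) and set against adult mouse tissue. The 70 members were all genes with a symbol made of Cyp, a family number, a subfamily letter and a gene number, without Cyp26a1, out of 31171 genes and unnamed probes on the arrays. Family 2 gave 36 members, family 4 gave 11, family 3 gave 5, family 1 gave 3, and the families that make or clear steroids, bile acids, vitamin D and retinoic acid gave most of the other 15. All 70 had a probe on the Mouse Whole Genome arrays, and 57 also had one on the UniSet Mouse 20K I arrays.

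The ESC belonged to 1 line, MES3, derived from a C57BLxCBA blastocyst and grown with LIF and b-mercaptoethanol on embryonic fibroblasts inactivated with mitomycin. EB came from pieces of the same colonies that were moved to low-adhesion plates, without LIF or b-mercaptoethanol, for 3 or 7 days. Adult RNA is labelled as adult tissue cells, with no organ named. The UniSet Mouse 20K I platform carried 1 ESC sample, 2 samples of each EB age and 2 adult samples. The Mouse Whole Genome platform carried a further sample of ESC and of each EB age, and no adult tissue. Nothing in the labels ties replicates to separate cultures or animals, so the p-values describe how these particular samples scatter, and that scatter may be technical.

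Cytochrome P450 enzymes hold a haem group and insert 1 atom of molecular oxygen into their substrate. Microsomal members draw electrons from the reductase Por, and mitochondrial members draw them from the ferredoxin Fdx1. Members of families 1 to 3 are best known for oxidising drugs and other foreign compounds in the liver, intestine, kidney and lung. Family 4 hydroxylates fatty acids, and the higher-numbered families act mainly on sterols, steroid hormones, vitamin D and retinoic acid.

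Levels are log2 normalized intensities, comparable for 1 probe within 1 platform only. Values were floored at the median negative control, which was 1.78 on the 20K platform and 2.39 on the Whole Genome platform. A probe counted as above background in a group when the scanner software had marked it so on every array of that group. On the 20K platform the raw signal of the median probe, divided by that of the negative controls, was 2.06 to 3.05 on ESC and EB arrays, against 10.3 and 7.78 on adult arrays. The share of gene probes above background was 27.8% to 36.4% on those ESC and EB arrays, against 52.8% and 57.9% on the adult arrays. Sensitivity therefore differed between ESC or EB and adult tissue, and a gene marked below background may still be transcribed. The analysis dates of the file headers put the adult arrays in a batch of their own, so batch and adult tissue cannot be told apart.

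Marker genes were checked before the P450 genes. Of 8 pluripotency markers on the 20K arrays, 7 were above background in ESC, 7 in 3-day EB, 8 in 7-day EB and 3 in adult tissue. Feeder fibroblast markers were above background for 12 of 14 genes in ESC, 1 in each EB group and 11 in adult tissue. Visceral endoderm and liver markers numbered 0 of 10 in ESC, 1 in 3-day EB, 4 in 7-day EB and 7 in adult tissue. All 4 kidney markers were above background in adult tissue and none was in ESC or EB. These counts hold for the 20K arrays only. On the brighter Whole Genome arrays, 2 of the 4 kidney markers were above background in ESC and 3 in each EB group. Visceral endoderm and liver markers there numbered 8 of 12 in ESC, 9 in 3-day EB and 10 in 7-day EB. Feeder fibroblast markers numbered 14 of 14, 9 and 12, and pluripotency markers 10 of 10 in each group. In bulk RNA, fewer cells of a type and less RNA per cell cannot be told apart.

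Most P450 genes were below background in ESC and EB on the 20K arrays, and more of them were seen in adult tissue. Only 4 of the 57 members (7.02%) were above background on every array in ESC, in 3-day EB and in 7-day EB alike, where the shares over all genes were 30.7%, 26.7% and 31.8%. Adult tissue had 23 of 57 (40.4%), beside 52.2% of all genes. On the brighter Whole Genome arrays the counts were 31 of 70 in ESC (44.3%), 34 in 3-day EB (48.6%) and 41 in 7-day EB (58.6%), beside 60.6%, 65.6% and 70.1% of all genes. In each of the 7 sets the share of P450 genes was below that of all genes.

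**Figure D1:**
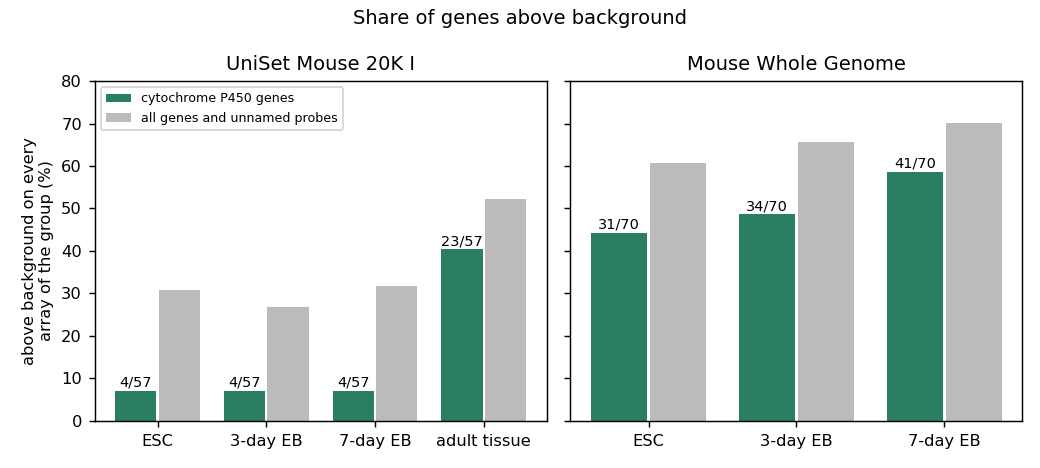
Percentage of P450 genes (green) and of all genes and unnamed probes (grey) above background on every array of a group, by platform; numbers over the green bars are genes over members on the platform. The P450 share was 7.02% in ESC and in both EB groups on the UniSet Mouse 20K I arrays and 40.4% in adult tissue, and it was 44.3% to 58.6% on the Mouse Whole Genome arrays.

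Across both platforms, 46 members could be described and 24 could not. The 24 were never above background on every array of any group, and their levels lay between 1.78 and 4.82. They included Cyp7a1 and Cyp8b1, which make bile acids, and Cyp3a11, a major drug-oxidising enzyme. Further members were Cyp2b10, Cyp2c29, Cyp2c37, Cyp2c38, Cyp2c39, Cyp2c40, Cyp2c54, Cyp2c67, Cyp2c70 and Cyp2d40. The adrenal enzymes Cyp11b2 and Cyp21a1 and the vitamin D 24-hydroxylase Cyp24a1 were also among them, and the others were Cyp2a12, Cyp2a22, Cyp2g1, Cyp2j5, Cyp3a25, Cyp3a44, Cyp4f14 and Cyp4f18. In adult tissue, Cyp2g1, an enzyme of the olfactory lining, and 1 of the 2 Cyp2c37 probes were above background on 1 of 2 arrays. The rest of these genes that the 20K platform carries were below background on both adult arrays. Cyp2a12, Cyp2a22, Cyp2c38, Cyp2c40, Cyp2c54, Cyp2c67, Cyp3a25 and Cyp3a44 had no probe on the 20K arrays, so adult tissue was not measured for them.

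Between EB and ESC, 4 of the 57 genes could be tested, and none of them passed. Cyp2d9, Cyp2d13 and Cyp2d34 belong to the Cyp2d cluster of drug-metabolising enzymes, and Cyp4a10 is a fatty acid omega-hydroxylase induced through the receptor Ppara. With the probe tested, all 4 were above background on every array of both platforms. A second Cyp2d9 probe, on the Whole Genome arrays only, was above background on 1 of 2 7-day EB arrays and on no ESC or 3-day EB array. Cyp2d13 read 7.90 in ESC, 7.68 and 7.90 in 3-day EB, and 7.73 and 7.70 in 7-day EB on the 20K arrays, and 10.98, 10.53 and 10.28 in ESC, 3-day EB and 7-day EB on the Whole Genome arrays. The EB samples did not exceed their ESC sample on either platform. Cyp2d34 read 6.27 in ESC, 6.30 and 6.08 in 3-day EB and 6.12 and 6.11 in 7-day EB. Cyp2d9 read 6.05 in ESC, 5.87 and 5.91 in 3-day EB and 5.76 and 5.85 in 7-day EB. Except for 1 of the 3-day samples in Cyp2d34, the EB samples of both genes were slightly below ESC. Cyp4a10 read 5.60 in ESC, 5.84 and 5.91 in 3-day EB and 5.62 and 5.60 in 7-day EB, so 3-day EB was the higher group on this platform.

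The limma fit over 6294 genes, with platform as a term, called 5.18% of them in 7-day EB against ESC, 3.02% in 3-day EB against ESC and 0% in 7-day against 3-day EB. Without adjustment, 22.5%, 19.0% and 14.7% of genes had p under 0.05 in these comparisons, and none of the 4 P450 genes did. Cyp2d13 had the largest difference, at -0.41 ± 0.20 in 7-day EB against ESC (log2, SE; 95% interval -0.87 to 0.05; limma adjusted p = 0.269; 3 EB and 2 ESC samples). The intervals of the other 3 genes in that comparison ran from -0.66 to 0.28 in all. With each array entered as a sample, Cyp2d13 in 7-day EB against ESC passed the threshold (limma adjusted p = 0.0448). That setting treats the 2 arrays of a sample as independent. It called 1588 of 5953 genes in this comparison, against 326 of 6294 in the main fit.

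RNA of both electron donors was above background on every array. Por read 6.87 in ESC, 6.42 to 6.65 in the 4 EB samples, and 6.60 and 6.93 in adult tissue on the 20K arrays. Fdx1 read 7.73 in ESC, 7.14 to 7.74 in EB, and 9.60 and 8.90 in adult tissue, so every ESC and EB sample was below both adult samples. Neither gene passed the test between EB and ESC. Of the 6 electron donor genes tested, 0 changed in 7-day or 3-day EB against ESC, with a median difference of -0.34 and -0.31 beside 0.04 and 0.06 over all genes.

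Against adult tissue the P450 genes that could be tested were mostly lower in ESC and EB. The fit used the 7 samples of the 20K platform and tested 10065 genes, 23 of them members. Since 19 of the 23 passed the filter only through adult tissue, their number and median carry no weight and are given as a description. Not all of the 19 were bright there: adult means were 3.67 for Cyp27b1, 3.71 for Cyp2b19, 3.79 for Cyp4v3 and 3.85 for Cyp2s1. The lowest signal above background was 4.11 to 4.86 on the ESC and EB arrays of this platform, and lower on both adult arrays. These 4 adult means lie under that range, so the filter was easier to pass in adult tissue. In ESC, 14 members were called, beside 51.8% of all genes tested: 13 were lower, beside 26.6% of all genes, and 1 was higher, beside 25.2%. In 3-day EB, 15 were called, beside 62% of all genes: all 15 were lower, beside 31.5%, and 0 were higher, beside 30.5%. In 7-day EB, 16 were called, beside 61.6%: all 16 were lower, beside 32.2%, and 0 were higher, beside 29.4%. The 3 comparisons share the adult samples. The median difference of the 23 was -2.03 in ESC, -1.75 in 3-day EB and -2.25 in 7-day EB, and that of all genes tested was 0.04, 0.00 and -0.03. Scaling each array by its median in place of quantile normalization shifted the median of all genes to -0.36, -0.48 and -0.49 and cut the share of calls that were higher, over all genes, to 35.1%, 32.4% and 32.9%, against 48.6%, 49.2% and 47.8%. It left 15, 19 and 18 members called, all of them lower. With no filter on background, 57 members were tested. Of these, 4 were called higher in ESC, 3 in 3-day EB and 3 in 7-day EB, and 13, 15 and 16 were lower. Over all 18094 genes then tested, 2593, 3530 and 3512 were higher. The near absence of members called higher thus holds only for those that passed the filter.

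**Figure D2:**
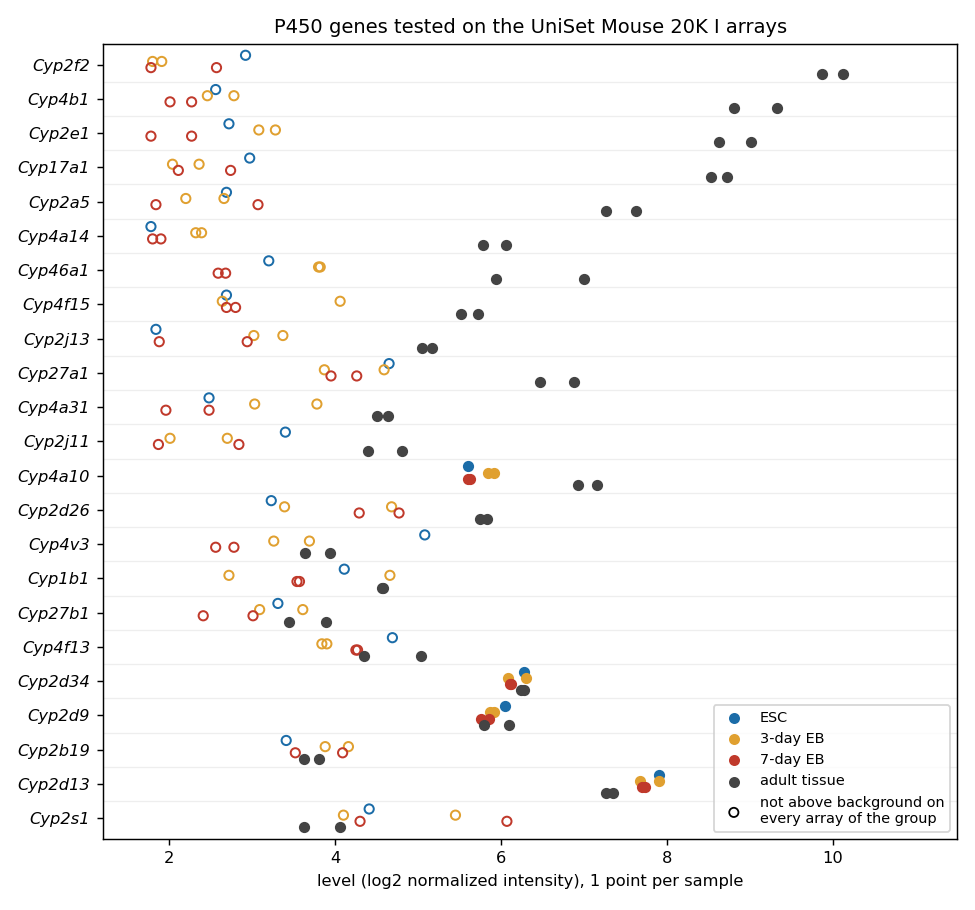
Level (log2 normalized intensity) of the 23 tested P450 genes in each of the 7 samples on the UniSet Mouse 20K I arrays, 1 point per sample, ordered by the difference between 7-day EB and adult tissue; open points mark groups that were not above background on every array. The top 4 rows, Cyp2f2, Cyp4b1, Cyp2e1 and Cyp17a1, have adult points between 8.53 and 10.12 and all ESC and EB points at or below 3.28.

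Cyp2f2, Cyp4b1, Cyp2e1 and Cyp17a1 are described first, as the members with the highest bounds. Cyp2f2, which oxidises naphthalene in the club cells of the airway, read 2.92 in ESC, 1.91 and 1.80 in 3-day EB and 1.78 and 2.57 in 7-day EB, against 10.12 and 9.87 in adult tissue. Every ESC and EB array was below background, and the groups were far apart. The difference was -7.08 ± 0.39 in ESC, -8.14 ± 0.31 in 3-day EB and -7.82 ± 0.31 in 7-day EB (log2, SE; limma adjusted p = 2.91e-05, 6.3e-06 and 5.76e-06). A dim probe gives only a bound. On each dim array, the larger of the probe's own level and the array's lowest signal above background was used. Cyp2f2 was then at least 43.2-fold lower in ESC, 38.6-fold in 3-day EB and 52.2-fold in 7-day EB. Some probes marked below background read above that lowest signal, so the bounds are approximate. On the Whole Genome arrays 1 of the 2 ESC arrays was above background for Cyp2f2, at a mean of 5.50, and 1 of the 2 7-day EB arrays, at a mean of 3.73.

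Cyp4b1, a lung and kidney enzyme that oxidises fatty acids and some aromatic amines, read 2.56 in ESC, 2.46 and 2.78 in 3-day EB and 2.01 and 2.27 in 7-day EB, against 8.81 and 9.33 in adult tissue. It was at least 22.9-fold lower in ESC (limma adjusted p = 2.82e-05) and at least 27.6-fold lower in 7-day EB (limma adjusted p = 6.1e-06). Cyp2e1, the ethanol-oxidising P450, read 2.72 in ESC, 3.28 and 3.08 in 3-day EB and 1.78 and 2.27 in 7-day EB, against 9.01 and 8.63 in adult tissue. Its bounds were 19.2-fold in ESC and 23.2-fold in 7-day EB. Neither gene was above background on any ESC or EB array of this platform. On the Whole Genome arrays, Cyp2e1 was above background on 1 of 2 arrays in 3-day EB and in 7-day EB, and on 0 of 2 in ESC.

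Cyp17a1, the 17-alpha-hydroxylase of steroid hormone synthesis, read 2.97 in ESC, 2.36 and 2.04 in 3-day EB and 2.74 and 2.11 in 7-day EB, against 8.53 and 8.72 in adult tissue. It was at least 16.7-fold lower in ESC (limma adjusted p = 4.76e-05) and at least 20.2-fold lower in 7-day EB (limma adjusted p = 8.02e-06). The other steroid hormone P450 genes on the platform, Cyp11a1, Cyp11b2, Cyp19a1 and Cyp21a1, were below background in every group, adult tissue included, with adult levels of 1.78 to 2.67. Of 4 further steroid hormone genes tested, 4 were lower in ESC than in adult tissue and 3 were lower in each EB group, but all 4 passed the filter only through adult tissue, so nothing is read from these counts. Hsd17b3, the last enzyme of testosterone synthesis, read 1.78 to 2.94 in ESC and EB, against 5.54 and 5.97 in adult tissue. On the 20K arrays, marker genes of steroid-making cells were above background for 2 of 5 genes in adult tissue and 0 in ESC or EB. One of the 2, Nr5a1, was above it on 1 of 2 ESC, 2 of 4 3-day and 3 of 4 7-day arrays. On the Whole Genome arrays, 2 of the 5, Star and Nr5a1, were above background in ESC and in each EB group. The receptors Lhcgr and Mc2r read 1.78 on both adult arrays. A summed marker level, here and below, is the log2 of the summed intensities of a list, so its brightest genes weigh most. For these markers it was 5.36 to 5.70 in ESC and EB on the 20K arrays, against 6.14 and 6.32 in adult tissue. The part of these markers in the Cyp17a1 result was not tested.

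The bases upstream of the start are shown for the 3 genes of this set that have an entry in the RefSeq promoter table (GRCm38.p6), because the results against adult tissue open with them. Each is 250 bases long, 5′ to 3′ on the gene's strand, and ends just before the start site. Capitals mark matches on either strand. The TATA box was searched as TATAAA. The half-site of nuclear receptors was searched as AAGGTCA. The core of the aryl hydrocarbon receptor element was searched as GCGTG. The GC box was searched as GGGCGG.
Cyp2f2 (chr7:27119705-27119954, plus strand): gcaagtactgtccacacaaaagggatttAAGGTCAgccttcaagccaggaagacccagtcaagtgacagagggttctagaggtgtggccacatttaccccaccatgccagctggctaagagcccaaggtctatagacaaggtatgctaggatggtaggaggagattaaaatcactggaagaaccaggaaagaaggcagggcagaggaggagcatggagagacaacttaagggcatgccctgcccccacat
Cyp4b1 (chr4:115647722-115647971, minus strand): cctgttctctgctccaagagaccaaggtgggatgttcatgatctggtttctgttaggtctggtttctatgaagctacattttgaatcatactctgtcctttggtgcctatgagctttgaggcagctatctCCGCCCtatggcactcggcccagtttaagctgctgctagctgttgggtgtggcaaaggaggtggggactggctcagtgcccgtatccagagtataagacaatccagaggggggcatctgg
Cyp2e1 (chr7:140763569-140763818, plus strand): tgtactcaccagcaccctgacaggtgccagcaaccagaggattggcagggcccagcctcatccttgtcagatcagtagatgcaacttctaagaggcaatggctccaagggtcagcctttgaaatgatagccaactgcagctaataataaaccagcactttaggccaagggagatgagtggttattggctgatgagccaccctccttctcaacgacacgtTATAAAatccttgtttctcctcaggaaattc
Cyp2f2 held 1 AAGGTCA, starting 222 bases before the start, Cyp4b1 held 1 GC box on the opposite strand, starting 120 bases before it, and Cyp2e1 held 1 TATA box, starting 31 bases before it. The 3 windows held 0, 3 and 2 CpG dinucleotides, in the order printed. Of the 70 members, 53 matched the table, with 62 windows. TATAAA was in 23 of those 62 (37.1%), beside 12.4% of all 32851 windows of the table, and AAGGTCA was in 5 (8.06%), beside 4.08%. GGGCGG was in 16 (25.8%), beside 32.7%, and GCGTG was in 13 (21.0%), beside 28.2%. A match is a run of letters and not a shown binding site.

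Further fatty acid and foreign compound genes were also lower, and the bounds that could be given were smaller than those above. A bound depends on the adult level, so bounds do not rank these genes by the size of the difference. Cyp2a5, the coumarin hydroxylase, read 1.84 to 3.07 in ESC and EB, against 7.62 and 7.26 in adult tissue, and was at least 7.38-fold lower in ESC (limma adjusted p = 0.00042). Cyp4a14, a fatty acid omega-hydroxylase, read 1.78 to 2.39 in ESC and EB, against 5.78 and 6.06 in adult tissue, with bounds of 2.57-fold in ESC, 2.16-fold in 3-day EB and 3.09-fold in 7-day EB. Its relative Cyp4a10 was above background everywhere, so its fold needed no bound. It read 5.60 to 5.91 in ESC and EB, against 7.16 and 6.93 in adult tissue, with no overlap. It was 2.72-fold lower in ESC (-1.44 ± 0.29; limma adjusted p = 0.00512), 2.25-fold lower in 3-day EB and 2.70-fold lower in 7-day EB.

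Cyp4f15, an omega-hydroxylase of the Cyp4f cluster, read 2.64 to 4.06 in ESC and EB, against 5.72 and 5.52 in adult tissue, with a bound of 2.09-fold in ESC. Cyp2j13, of the Cyp2j cluster of arachidonic acid epoxygenases, read 1.84 to 3.37, against 5.17 and 5.05, with a bound of 1.46-fold in ESC. Cyp4a31 read 1.96 to 3.78, against 4.51 and 4.64, with a bound of 1.01-fold in ESC and none above 1 in 3-day EB. Cyp2j11 read 1.87 to 3.40, against 4.80 and 4.40, and passed the test in 3-day EB (limma adjusted p = 0.00227) and 7-day EB (limma adjusted p = 0.00223) but not in ESC (limma adjusted p = 0.077). These 4 genes were below background on all ESC and EB arrays of the platform. For Cyp4a31 and Cyp2j11 the bounds stayed at or under 1.24, so the size of their difference is not known.

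Among the genes of bile acid and cholesterol side chain metabolism, 2 of 6 could be tested. Both were called lower in ESC, 3-day EB and 7-day EB, beside 26.6%, 31.5% and 32.2% of all genes. They passed the filter only through adult tissue, so nothing is read from this count. Cyp27a1, the mitochondrial sterol 27-hydroxylase, read 4.65 in ESC, 3.87 and 4.59 in 3-day EB and 3.95 and 4.26 in 7-day EB, against 6.47 and 6.88 in adult tissue. Its bound in ESC was 3.97-fold (limma adjusted p = 0.00493). The ESC arrays were marked below background, yet their level was above the lowest signals so marked, 4.57 and 4.55. That bound is therefore close to the measured 4.07-fold. Cyp27a1 was also called lower in 3-day EB (limma adjusted p = 0.000573) and 7-day EB (limma adjusted p = 0.000429). There 1 of 4 arrays in each group was above background, so no fold is given for EB. Cyp46a1, the cholesterol 24-hydroxylase of neurons, read 3.2 in ESC, 3.80 and 3.82 in 3-day EB and 2.59 and 2.68 in 7-day EB, against 5.94 and 7.00 in adult tissue. Its bounds were 3.77-fold in ESC, 3.36-fold in 3-day EB and 4.54-fold in 7-day EB. Cyp7a1, Cyp7b1, Cyp8b1 and Cyp39a1 were below background on every 20K array, adult tissue included.

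Of the vitamin D genes, 1 of 3 could be tested. Cyp27b1, the 1-alpha-hydroxylase that makes the active hormone, read 3.31 in ESC, 3.09 and 3.61 in 3-day EB and 3.01 and 2.41 in 7-day EB, against 3.89 and 3.44 in adult tissue. Only 7-day EB passed the test (-0.96 ± 0.33; limma adjusted p = 0.0379), no bound above 1 could be given, and the call was lost under several of the alternatives, with an adjusted p of 0.192 without 7-day EB replicate 2. Cyp4f13, a leukotriene hydroxylase, was called lower in 3-day EB (-0.83 ± 0.29; limma adjusted p = 0.0403), at 3.9 and 3.84 against 4.35 and 5.04 in adult tissue, again with no bound above 1.

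Different probes of a gene disagreed for Cyp2d26 and Cyp4v3. For Cyp2d26 the probe with the highest mean read 3.23 in ESC, 3.39 and 4.68 in 3-day EB and 4.29 and 4.77 in 7-day EB, against 5.83 and 5.74 in adult tissue. It was below background on both ESC arrays and at least 2.34-fold lower in ESC (limma adjusted p = 0.00585). Its second probe read 1.78 to 2.06 in all ESC and EB samples, against 8.67 and 8.24 in adult tissue. Both probes were lower in ESC and EB, but by very unlike amounts.

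Cyp4v3, a fatty acid hydroxylase, was the member called higher in ESC. The probe with the highest mean read 5.08 in ESC, 3.69 and 3.26 in 3-day EB and 2.56 and 2.78 in 7-day EB, against 3.94 and 3.64 in adult tissue. It was 1.29 ± 0.33 higher in ESC than in adult tissue (limma adjusted p = 0.0149) and differed by -1.12 in 7-day EB (limma adjusted p = 0.00885), and only 1 of the 2 ESC arrays was above background. The second probe read 4.53 in ESC, 1.96 and 2.25 in 3-day EB and 2.79 and 2.17 in 7-day EB, against 5.54 and 4.81 in adult tissue. It put ESC below adult tissue, so the direction of Cyp4v3 in ESC against adult tissue is not settled.

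Cyp2d9, Cyp2d13, Cyp2d34, Cyp1b1, Cyp2b19 and Cyp2s1 passed the test in none of the 3 comparisons with adult tissue. Cyp2d13 read 7.68 to 7.90 in ESC and EB, against 7.35 and 7.26 in adult tissue, so the groups did not overlap, though the largest difference, 0.60 ± 0.29 in ESC, missed the threshold (limma adjusted p = 0.117). Cyp2d9, a male liver enzyme, read 5.76 to 6.05 in ESC and EB, against 6.09 and 5.79 in adult tissue, so the groups overlapped. Cyp2d34 read 6.08 to 6.30 in ESC and EB, against 6.28 and 6.24, and overlapped as well. Under median scaling, Cyp2d9, Cyp2d34 and Cyp1b1 were called lower in both EB groups, and with the replicate block or without 7-day EB replicate 1, Cyp2s1 was called higher in 7-day EB. Cyp2s1, an enzyme of epithelia, read 4.41 in ESC, 4.1 and 5.45 in 3-day EB and 4.30 and 6.07 in 7-day EB, against 3.63 and 4.06 in adult tissue. Replicate 2 was the higher EB sample at both times. Cyp1b1, which oxidises oestrogens and polycyclic hydrocarbons, read 2.72 to 4.66 in ESC and EB, against 4.58 and 4.56. Cyp2b19, an epoxygenase of keratinocytes, read 3.41 to 4.16, against 3.62 and 3.80.

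**Figure D3:**
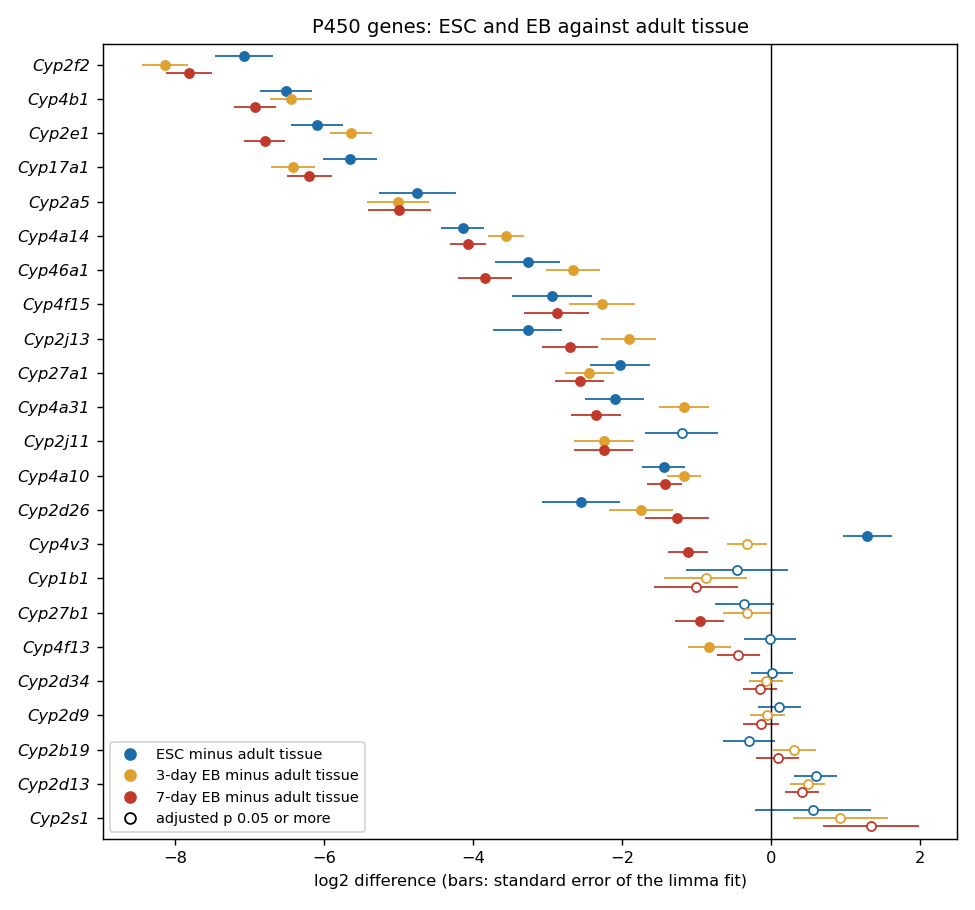
Difference (log2) of ESC, 3-day EB and 7-day EB from adult tissue for the 23 tested P450 genes, with the standard error of the limma fit; open points had an adjusted p of 0.05 or more. Cyp2f2 lay lowest at -7.08 to -8.14, the 3 Cyp2d genes near the bottom lay between -0.15 and 0.60, and Cyp4v3 was the 1 gene called higher in ESC.

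The levels of the other genes of the pathway moved both ways against adult tissue. Alas1, the first enzyme of haem synthesis, read 6.03 to 6.43 in ESC and EB, against 8.13 and 8.35 in adult tissue (-1.81 ± 0.30 in ESC; limma adjusted p = 0.00242). Urod, a later enzyme of the same route, was higher in ESC by 2.31 ± 0.33 (limma adjusted p = 0.00132). Cyb5b, an outer mitochondrial cytochrome b5, was 2.25 ± 0.31 higher in ESC than in adult tissue, while Fdx1 was 1.52 lower (limma adjusted p = 0.00114 and 0.0123). Among 8 tested regulators of P450 genes, 1 was higher in ESC, beside 25.2% of all genes, and 2 were lower, beside 26.6%. The 2 lower ones, Rxra and Nr1h3, passed the filter only through adult tissue, so nothing is read from their count. Nfe2l2, the oxidative stress factor, read 7.42 to 7.80 in ESC and EB, against 5.01 and 4.72. The pregnane and androstane receptors Nr1i2 and Nr1i3 were below background on all arrays of both platforms. Of 14 conjugating enzymes, 8 were lower in ESC, beside 26.6% of all genes, and 1 was higher, beside 25.2%. Of the 8, Gsta1, Gsta2, Gsta3, Gstt1 and Sult1c2 passed the filter only through adult tissue. Gstm5 and Gsta4, which were above background on every array, differed by -3.84 ± 0.28 and 2.36 ± 0.30 in ESC (limma adjusted p = 8.51e-05 and 0.000781). Aldh1a1, which makes retinoic acid, read 1.92 to 2.86 in ESC and EB, against 10.56 and 10.30 in adult tissue.

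Between EB and ESC, 3 conjugating enzymes passed the test. Gstm5 rose in 3-day EB (1.45 ± 0.30; limma adjusted p = 0.0463), and Mgst1 and Gsta4 fell in 7-day EB by 1.84 and 1.40 (limma adjusted p = 0.0234 and 0.0462), out of 7 tested. None of 3 regulators and 4 other oxygenases or reductases passed the test in 7-day or 3-day EB against ESC. Feeder fibroblast markers fell over the same step: 8 of 12 tested were lower in 7-day EB and 7 in 3-day EB, with summed levels of 7.16 to 8.94 in EB, against 11.71 in ESC. Their part in the 3 conjugating enzyme results was not tested.

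The Whole Genome arrays showed 41 members above background on every usable array of at least 1 sample. With 1 sample a group there is no replicate check, and values below are those of ESC, 3-day EB and 7-day EB in turn, each the mean of 2 arrays. The 2 ESC arrays differed by a median of 0.46 over all genes, the 3-day arrays by 0.15 and the 7-day arrays by 0.09. At least 2-fold differences were counted against all 22787 genes treated alike. In 7-day EB against ESC, 5 members were higher, beside 12.4% of all genes, and 4 lower, beside 9.55%. In 3-day EB against ESC, 7 were higher, beside 10.4%, and 4 lower, beside 8.61%. From 3 to 7 days, 4 were higher, beside 7.92%, and 5 lower, beside 6.85%. Of the 41 these are 12.2%, 9.76%, 17.1%, 9.76%, 9.76% and 12.2%, in the same order.

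**Figure D4:**
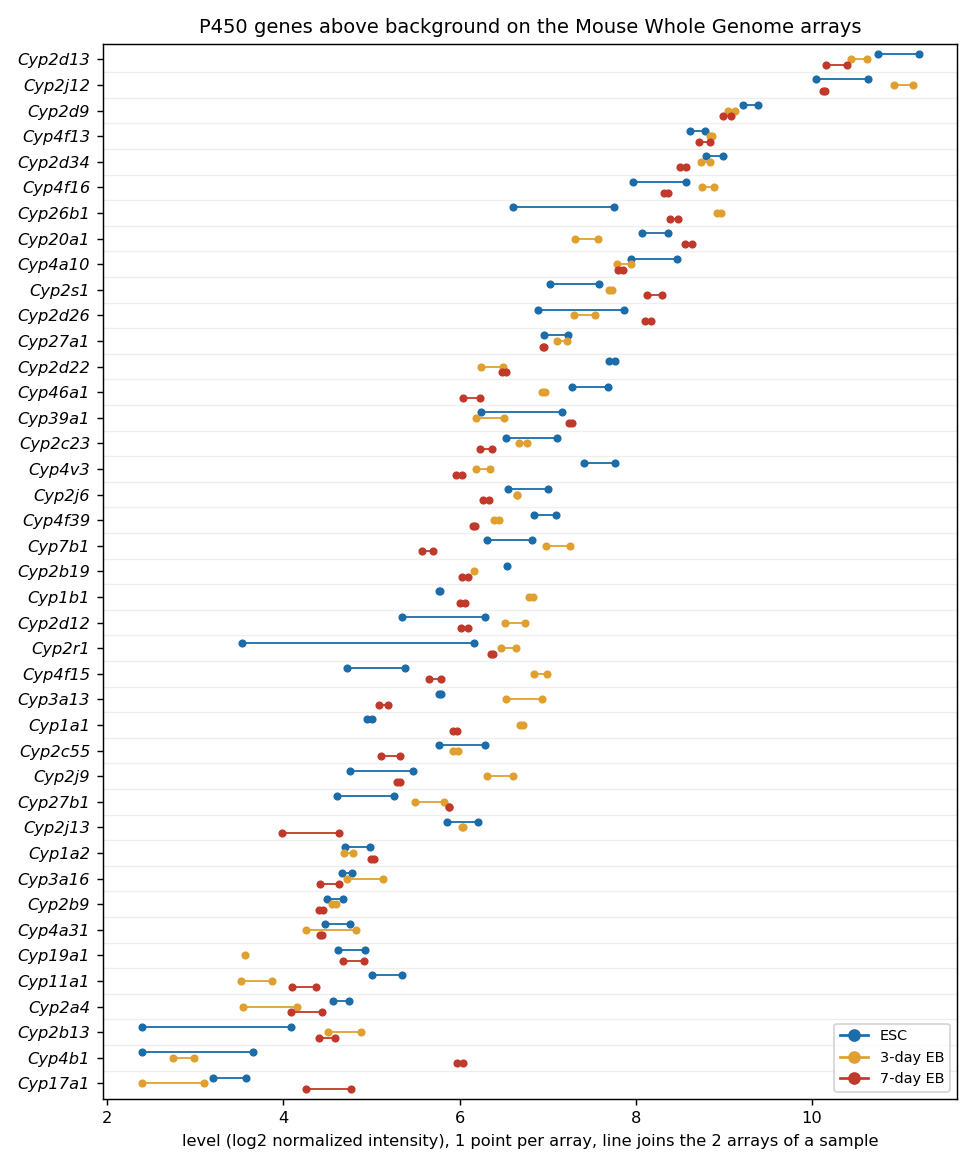
Level (log2 normalized intensity) of the 41 P450 genes above background on the Mouse Whole Genome arrays, with 1 point per array and a line between the 2 arrays of a sample, ordered by mean level. Cyp2d13 and Cyp2j12 are at the top, above 10 in all 3 samples, and Cyp4b1 is near 6 in 7-day EB and at or below 3.65 on the ESC and 3-day EB arrays.

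Cyp26b1, which breaks down retinoic acid, was measured on this platform only. It read 7.18 in ESC, 8.95 in 3-day EB and 8.44 in 7-day EB, and every EB array (8.39 to 8.97) was above both ESC arrays (7.75 and 6.61). The difference was 1.77 in 3-day EB and 1.26 in 7-day EB. In family 1, Cyp1a1, which oxidises polycyclic hydrocarbons, read 4.98, 6.70 and 5.94, with 1 of 2 ESC arrays above background. Cyp1b1 read 5.77, 6.81 and 6.03, with all 6 arrays above background. For both genes the 3-day EB arrays were above all others. Ahr, the receptor itself, read 6.12, 8.06 and 7.65, with 1 of 2 ESC arrays and all EB arrays above background. On the 20K arrays Cyp1a1 was below background everywhere, at 2.00 to 3.47, and Ahr read 4.42 in ESC, 6.01 and 4.84 in 3-day EB and 4.33 and 4.89 in 7-day EB. There Ahr was above background on 0 of 2 ESC arrays and on 3 of 4 arrays in each EB group. Cyp1a2, the third member of the family, read 4.84, 4.74 and 5.01 on the Whole Genome arrays, and on the 20K arrays it reached 5.98 in 3-day EB replicate 2, beside 2.25 to 3.34 elsewhere, with 1 of the 4 3-day arrays above background.

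The upstream bases of Cyp1a1 and Cyp1b1 are shown because GCGTG is the letters of the receptor's element, with the same capitals and orientation as above.
Cyp1a1 (chr9:57697363-57697612, plus strand): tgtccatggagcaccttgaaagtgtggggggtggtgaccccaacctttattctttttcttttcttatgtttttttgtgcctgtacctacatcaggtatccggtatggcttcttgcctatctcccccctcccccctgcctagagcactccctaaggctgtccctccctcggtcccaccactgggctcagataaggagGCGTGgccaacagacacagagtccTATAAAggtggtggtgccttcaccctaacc
Cyp1b1 (chr17:79715062-79715311, minus strand): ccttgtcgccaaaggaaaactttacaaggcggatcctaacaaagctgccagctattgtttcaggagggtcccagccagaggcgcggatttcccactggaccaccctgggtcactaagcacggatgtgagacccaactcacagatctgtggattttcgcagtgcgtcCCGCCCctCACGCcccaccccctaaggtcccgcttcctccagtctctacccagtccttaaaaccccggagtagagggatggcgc
Each window held 1 GCGTG, starting 54 bases before the start in Cyp1a1 and 76 bases before it in Cyp1b1, where it lies on the opposite strand. GCGTG was in 28.2% of all windows of this length, so its presence here is no mark of the pair.

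Steroid hormone genes were dim on this platform. Cyp11a1, which cuts the cholesterol side chain, read 5.18, 3.69 and 4.24 and was above background on both arrays in ESC and in 7-day EB and on neither in 3-day EB. Cyp17a1 read 3.38, 2.74 and 4.51 and was above background in 7-day EB only. Cyp19a1, the aromatase, read 4.77, 3.56 and 4.80, with 1 of the 3-day arrays set aside. On the 20K arrays these 3 genes were below background in all ESC and EB samples.

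Of the sterol genes, Cyp7b1, the oxysterol 7-alpha-hydroxylase, read 6.56, 7.12 and 5.64, a fall of 1.48 from 3 to 7 days in this 1 pair of samples. Cyp39a1, which acts on 24-hydroxycholesterol, read 6.70, 6.34 and 7.25. Cyp27a1 read 7.1, 7.16 and 6.96 and varied least of the 4. Cyp46a1 read 7.48, 6.95 and 6.14, so 7-day EB was 1.35 below ESC, and the arrays of the 3 samples did not overlap. On the 20K arrays Cyp46a1 was also lower at 7 days (2.59 and 2.68) than at 3 days (3.80 and 3.82), though below background.

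Of the vitamin D genes, Cyp27b1 read 4.93, 5.66 and 5.88. Cyp2r1, the vitamin D 25-hydroxylase, read 4.85, 6.56 and 6.37 with the brighter of its 2 probes. Its 2 ESC arrays gave 6.16 and 3.53, so the 2-fold rise in EB rests on 1 ESC array. Its second probe was not above background on both arrays of any sample.

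In family 4, the arrays of Cyp4b1 stood apart at 7 days. Its arrays read 2.39 and 3.65 in ESC, 2.75 and 2.98 in 3-day EB and 6.04 and 5.97 in 7-day EB, above background in 7-day EB only. The 7-day sample was thus 2.99 above ESC as measured, whereas on the 20K arrays both 7-day EB samples were below background, at 2.01 and 2.27. Summed visceral endoderm and liver markers were 9.60 in ESC, 12.17 in 3-day EB and 13.77 in 7-day EB on the Whole Genome arrays, and 5.92 in ESC, 8.25 and 6.54 in 3-day EB and 10.65 and 7.92 in 7-day EB on the 20K arrays; their part in the Cyp4b1 value was not tested. The 7-day Whole Genome arrays also have an analysis date of their own, which cannot be told apart from 7 days on this platform.

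Cyp4v3 was higher in ESC than in EB with both probes on both platforms. The brighter probe read 7.58, 6.26 and 5.99 on the Whole Genome arrays, and the second read 6.63, 5.36 and 5.23, all above background. With the 20K values given above, every one of the 6 EB samples was below the ESC sample of its platform for both probes. The gene did not pass the filter of the EB fit, since only 1 of the 2 ESC arrays of the 20K platform was above background. With no filter, 18116 genes were tested and Cyp4v3 was 2.07 ± 0.29 lower in 7-day EB than in ESC (limma adjusted p = 0.0237) and 1.44 ± 0.29 lower in 3-day EB (limma adjusted p = 0.093). Feeder fibroblast markers moved the same way, with summed levels of 10.44 and 11.65 in 3-day and 7-day EB, against 14.61 in ESC on the Whole Genome arrays; their part in the Cyp4v3 result was not tested.

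Of the other family 4 genes, Cyp4f13 read 8.70, 8.85 and 8.78, and Cyp4f16, of the same cluster, read 8.27, 8.82 and 8.34. Cyp4f15 read 5.05, 6.92 and 5.72, so 3-day EB stood 1.87 above ESC, and both 3-day arrays were above all other arrays. On the 20K arrays Cyp4f15 read 4.06 and 2.64 in 3-day EB, against 2.69 in ESC, so 1 of 2 samples was higher, and all were below background. Cyp4f39, which acts on very long fatty acids of the skin barrier, read 6.96, 6.42 and 6.16 with 1 probe, while its other probe was below background throughout. Cyp4a10 read 8.21, 7.86 and 7.82. Cyp4a31 read 4.61, 4.54 and 4.43 with the brightest of its 3 probes.

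In family 2, Cyp2j12 read 10.34, 11.04 and 10.14 and had no probe on the 20K arrays. Cyp2j6, an epoxygenase, read 6.77, 6.65 and 6.30 with 1 probe. Its other probe read 4.08, 4.50 and 4.50, with neither ESC array above background. Cyp2j9 read 5.12, 6.46 and 5.30, and both of its 3-day arrays were above all others. Cyp2j13 read 6.03, 6.03 and 4.31, a difference of -1.73 in 7-day EB against ESC. Cyp2s1 read 7.3, 7.71 and 8.22, in the order of time.

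In the Cyp2d cluster, Cyp2d9 read 9.31, 9.09 and 9.03 and Cyp2d34 read 8.89, 8.79 and 8.53. The second Cyp2d9 probe read only 3.32, 2.39 and 3.86. Cyp2d22 read 7.73, 6.36 and 6.51, so ESC stood above both EB samples by over 2-fold, and its arrays did not overlap with theirs. On the 20K arrays Cyp2d22 was below background everywhere. Cyp2d26 read 7.38, 7.42 and 8.14 with 1 probe and 2.67, 3.45 and 3.55 with the other. Cyp2d12 read 5.82, 6.62 and 6.05. Near-identical neighbours make up the Cyp2c, Cyp2d, Cyp3a and Cyp4a clusters, so a probe may also catch RNA of a neighbour, and the files give no probe sequences to check this.

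Of the remaining family 2 genes, Cyp2c23, a kidney epoxygenase, read 6.82, 6.72 and 6.30, and Cyp2c55 read 6.03, 5.95 and 5.21. Cyp2b19 read 6.54, 6.16 and 6.06, and Cyp2b9 read 4.59, 4.57 and 4.43. Cyp2b13 read 3.24, 4.69 and 4.50, with neither ESC array above background and 1 of them at the floor. Its other probe was below background throughout, at 2.60, 2.65 and 2.39. Cyp2a4, a steroid 15-alpha-hydroxylase, read 4.65, 3.85 and 4.26 and was above background in 7-day EB only.

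In family 3, Cyp3a13 read 5.78, 6.73 and 5.14, with 3-day EB highest. On the 20K arrays it read 3.48 in ESC, 4.81 and 4.71 in 3-day EB and 3.56 and 4.65 in 7-day EB, with 1 or 2 arrays above background in each group. Without the filter its difference in 3-day EB against ESC was 1.07 ± 0.41 (limma adjusted p = 0.33). Cyp3a16 read 4.72, 4.92 and 4.52. Cyp20a1, a P450 with no settled substrate, read 8.21, 7.44 and 8.60, and the same probe was below background on every 20K array, at 1.78 to 3.63.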

How the data were processed

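Total RNA from 10 samples had been amplified and labelled for single-colour oligonucleotide arrays with Cy5, per the labels' protocols, giving 18 arrays of 2 platforms. The scanner files deposited by the authors give a raw intensity, a normalized intensity and a quality mark per spot; raw intensities below 0 show that a background had been subtracted, by a step not given in the sources used here, and the normalized column is divided by the array median, per the file headers. Arrays with the same group and the same first number in the title were averaged as 1 sample; the labels give no explanation of these numbers. Spots with the quality marks M, C or I were left out. Deposited raw intensities were quantile-normalized within a platform, floored at the median negative control (3.43 and 5.23), and turned to log2. Depth does not apply; the number of arrays limits precision. Probes were named by accession through RefSeq, by the platform table or, for 4 P450 probes, by the file's description; of 19758 shared probes, 15952 had 1 symbol, 3753 none and 53 several, and none was named from several. Where a gene had several probes, the one with the highest mean was used.

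Tests used limma 3.58.1 in R 4.3.3 with Benjamini-Hochberg adjustment over all genes tested at 0.05: EB against ESC over 8 samples of both platforms with platform as a term, and ESC and EB against adult tissue over 7 samples of 1 platform, where the single ESC sample borrows its spread from the remaining groups. A gene was tested when it was above background on every array of at least 1 group. The fits were tested on simulated data. Named genes are members called in any comparison or above background in ESC or EB on either platform, and the 5 brightest in adult tissue alone; the rest are given by counts and ranges, apart from the members never above background, which are listed by name after their values were seen. Members and lists were chosen with earlier results of these data known. Alternatives were other normalizations, filters, floors and probe rules, arrays as samples, the replicate number, the header date, and each sample left out. The deposited value tables were not used here.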

Additional observations from a re-analysis of the deposited data

How the results depend on the processing

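The counts of P450 genes called were within 1.5 times of the reported ones in all 6 comparisons under every alternative that gave a value, except in 7-day EB against ESC, where no filter gave 1 (Cyp4v3) and each array as a sample gave 1 (Cyp2d13), in place of 0. Leaving out each sample in turn gave 0 in each of the 3 comparisons among ESC and EB, 13 to 15 in ESC against adult tissue, 13 to 15 in 3-day EB and 13 to 17 in 7-day EB. The last 3 ranges come from the same filter and are a description only. Over all genes, calls against adult tissue were fewest without adult replicate 2, at 3966, 5096 and 5066 of 11212. The main fit called 5213, 6237 and 6199 of 10065. An intensity over 2 times the median negative control was also used in place of the scanner marks. On the 20K arrays it gave 19 P450 genes in ESC, 17 in 3-day EB and 14 in 7-day EB, against 4 in each. In adult tissue it gave 28, against 23. On the Whole Genome arrays it gave 45 in ESC, 47 in 3-day EB and 45 in 7-day EB, against 31, 34 and 41. The rise with EB age on that platform was thus not seen with this threshold. The share over all genes was not counted with it. Over all genes, the calls in 7-day EB against ESC went as low as 1 on the 20K platform alone and 24 without ESC replicate 2, and in 3-day EB against ESC as low as 0 and 1, and the highest counts, 1588 and 1269, came with each array as a sample. From 3 to 7 days the reported count of 0 became 975 with each array as a sample, 173 without 7-day EB replicate 2, and 7 with the higher floor or with the mean of a gene's probes.

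The replicate number as a block with platform called 0 P450 genes in all 3 EB comparisons, and over all genes 157, 67 and 12 for 7-day EB against ESC, 3-day EB against ESC and 7-day against 3-day EB, in place of 326, 190 and 0. As a block against adult tissue it called 14, 15 and 17, the last with Cyp2s1 higher in 7-day EB. Same-numbered 3-day and 7-day EB samples deviated together with a correlation of 0.23 over 10065 genes, but replicate 3 is alone on its platform, so the samples share only a number. The analysis date could enter the EB fit only, where it called 0 P450 genes. ESC against adult tissue has no value without its single ESC sample.

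Over the differences of members called against adult tissue and of the 4 members tested between EB and ESC, 775 values kept direction and side of the threshold, 27 lost the call, 1 gained it and 14 reversed. Members not called against adult tissue are outside this tally; median scaling there added calls for Cyp1b1, Cyp2d9, Cyp2d34, Cyp2j11 and Cyp4v3. The reversed values of Cyp4a10 were small: in 3-day EB against ESC -0.05 under median scaling, -0.06 with the authors' normalized column, and -0.27 to 0.24 with each sample left out, and in 7-day EB against ESC 0.03 with the replicate block, 0.01 on the 20K platform alone and -0.46 to 0.04 with each sample left out. The reported values are 0.01 and -0.19. Cyp2d34 in 3-day EB against ESC was 0 with the replicate block. Cyp4v3 in ESC against adult tissue was -1.10 under median scaling, -1.09 with the authors' column, -0.65 with the floor at 2 times the negative control and -0.65 to 1.44 with each sample left out; wherever it was negative, the second probe had been used. The lost calls were those of Cyp27b1, Cyp4f13, Cyp2d26, Cyp4a31 and Cyp4v3 against adult tissue, at adjusted p of 0.0531 or more. Weak signal on the ESC and EB arrays of the 20K platform limits what these comparisons can show.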

Other observations

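Of the 3 haem P450 enzymes whose symbols fall outside the family pattern, Cyp51, the lanosterol demethylase of cholesterol synthesis, was above background on every array and read 7.35 in ESC, 7.42 and 7.86 in 3-day EB, 7.64 and 7.22 in 7-day EB and 7.64 and 7.05 in adult tissue. It passed the test in none of the 6 comparisons. Ptgis, the prostacyclin synthase, read 9.86, 7.96 and 7.44 in ESC, 3-day EB and 7-day EB on the Whole Genome arrays, and 4.86 in ESC, 4.86 and 5.0 in 3-day EB and 4.34 and 4.11 in 7-day EB on the 20K arrays, where it was mostly below background. Tbxas1, the thromboxane synthase, was below background on all 18 arrays.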
